A study of Mus musculus with 14 samples.

Results

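The genes described here are the heat shock protein and DnaJ cochaperone families of the mouse hippocampus, for the most part cytosolic and mitochondrial protein-folding machinery that is expressed at rest and, for some members, is induced by protein-damaging stress. They were chosen by gene symbol from a table in which the authors kept only expressed genes whose processed signal differed from control. The symbols covered the HSP70 and HSP110 genes (Hspa, Hsph1), the small heat shock proteins (Hspb), the chaperonins Hspd1, Hspe1, Cct and Tcp1, and cytosolic HSP90. They also covered the J-domain genes (Dnaja, Dnajb, Dnajc), the Bag genes, the heat shock factors, and the cochaperones St13, Stip1 and Ahsa1. Named chaperones of the endoplasmic reticulum were left out, which removed 4 genes of the table that the symbols would have matched, whereas Hspa13, whose product is microsomal, was kept. Of the 7756 genes in the deposited table, 28 were members, and all 28 were among the 7338 genes that were tested. The constitutive Hspa8, the HSP90 genes Hsp90aa1 and Hsp90ab1, Hspd1 and the factor Hsf1 were not among these 7756 genes and were not analysed here.

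RNA was sequenced from the hippocampus of male C57BL/6J mice that were 8 weeks old and were kept for 28 days under 1 of 3 conditions. In the IH group (intermittent hypoxia, n = 5), oxygen alternated between 10% and 21% in cycles of 2 min for 8 h per day. In the SH group (sustained hypoxia, n = 5), oxygen was held at 10% for 8 h per day and at 21% for the rest of the day. The control group (n = 4) breathed 21% oxygen throughout and came from a preliminary experiment with the same strain, age and housing time, so that the oxygen condition and the experiment cannot be told apart in any comparison with control. IH and SH were delivered by different gas systems, so the oxygen pattern and the equipment cannot be told apart between these groups. The methods place tissue collection after a maze test and an avoidance test with a foot shock.

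Chaperones of the HSP70 family bind exposed hydrophobic stretches of unfolded proteins in cycles of ATP hydrolysis. J-domain proteins deliver the substrate and stimulate the hydrolysis, HSP110 and BAG proteins release the nucleotide, and the adaptor encoded by Stip1 passes clients on to HSP90. Small heat shock proteins hold unfolding proteins without ATP. The heat shock factor HSF1 induces many of these genes by binding alternating copies of the unit GAA and its reverse complement TTC in their promoters.

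The libraries held between 7203659 and 11777101 counts on the genes of the table, and the group medians were 9721253 in control, 8498303 in IH and 8617516 in SH. Of 12 markers of hippocampal neurons, 8 were measured, and their summed normalized count was between 103967 and 142580 in all 14 libraries. Camk2a alone had a mean of 99354 in control, 95889 in IH and 92423 in SH, so this sum says little about the other markers. The normalized count is a count divided by the relative library size after TMM scaling. All 14 markers of choroid plexus epithelium, a secretory tissue that borders the hippocampus, were detected. Their summed normalized count ranged from 4114 to 123880 in control, from 5152 to 75023 in IH and from 4910 to 91876 in SH, and exceeded 20000 in control 4, IH 1, IH 4, SH 1, SH 2 and SH 5. In bulk tissue, fewer cells of a type and less RNA per cell cannot be told apart. The lowest count of any member in any library was 38, for Hspb6.

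The sequences before the transcription start are shown for inducible genes, because these are the regions through which heat shock factors act and because Hspa1a and Hspa1b are nearly the same gene copied side by side. Capitals mark each facing pair GAANNTTC, and each sequence is the 250 bases before the start of the canonical GENCODE transcript, on the gene's own strand of the GRCm39 genome. Hspa1a, at chr17:35191133-35191382 on the minus strand, and Hspa1b, at chr17:35178215-35178464 on the minus strand, encode the stress-inducible cytosolic HSP70. Hspb1, at chr5:135916510-135916759 on the plus strand, encodes a small heat shock protein that is called HSP25 in the mouse.
Hspa1a: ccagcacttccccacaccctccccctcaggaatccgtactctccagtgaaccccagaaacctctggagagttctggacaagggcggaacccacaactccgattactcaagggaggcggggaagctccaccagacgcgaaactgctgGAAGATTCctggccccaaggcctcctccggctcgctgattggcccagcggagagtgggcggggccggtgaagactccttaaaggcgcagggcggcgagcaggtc
Hspa1b: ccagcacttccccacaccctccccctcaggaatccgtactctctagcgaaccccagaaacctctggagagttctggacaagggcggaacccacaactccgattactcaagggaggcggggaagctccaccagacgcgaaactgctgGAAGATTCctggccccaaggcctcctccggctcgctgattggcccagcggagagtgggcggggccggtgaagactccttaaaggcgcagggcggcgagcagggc
Hspb1: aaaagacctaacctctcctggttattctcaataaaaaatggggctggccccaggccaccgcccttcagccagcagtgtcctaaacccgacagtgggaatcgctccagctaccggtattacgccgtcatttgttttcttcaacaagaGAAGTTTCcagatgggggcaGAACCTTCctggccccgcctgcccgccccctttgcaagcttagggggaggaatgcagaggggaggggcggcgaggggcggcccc

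The Hspa1a and Hspa1b sequences were identical at 247 of 250 bases (98.8%), and the first base of the marked pair lay 104 bases before the start in both. In Hspb1, the first bases of the marked pairs lay 104 and 84 bases before the start. A window of 30 bases around the marked bases is given for Hspe1, which encodes the mitochondrial HSP10, and for Hsph1, which encodes an HSP110 protein. The Hspe1 window, at chr1:55127211-55127240 on the plus strand, is shown for its longer alternating run, and the Hsph1 window, at chr5:149559817-149559846 on the minus strand, for a pair in the back-to-back orientation TTCNNGAA.
Hspe1: cggtccgTTCTAGAACCTTCCGGAAggccc
Hsph1: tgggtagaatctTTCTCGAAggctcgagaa

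Searched on both strands of these 250 bases, GAANNTTC was found in 5 of the 28 members (17.9%; Hspa1a, Hspa1b, Hspb1, Hspe1 and Dnajc27) against 6.33% of the promoters of 21770 protein-coding genes. TTCNNGAA was found in 4 (14.3%; Hspe1, Hsph1, Cct5 and Dnajc30) against 6.79% of all. These motifs can overlap, as in Hspe1, and 8 members (28.6%) held at least 1 of them against 12.3% of all. A run of 3 alternating units (TTC, GAA and TTC, each after any 2 bases) was found in Hspe1 alone among the members (3.57%, against 0.349% of all). The hypoxia response core ACGTG was found in 5 members (17.9%) against 17.0% of all. A match is a run of letters and not a measured binding site.

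Compared per kb of the canonical transcript, the members covered a wide range of levels. In the control group, the adaptor gene Stip1 was highest at a mean of 1395 ± 45.9 normalized counts per kb (SD, n = 4), followed by Hspe1 at 1227 ± 134, Hsph1 at 1074 ± 115, St13 at 851 ± 39.1 and Cct5, a subunit of the cytosolic chaperonin, at 778 ± 68.0. Neighbours in this order differed by less than the sum of their SDs, except Hsph1 and St13. The inducible HSP70 genes and Hspb1 had lower levels than these, Hspa1b at 220 ± 95.2, Hspa1a at 187 ± 92.5 and Hspb1 at 159 ± 61.6 normalized counts per kb, with overlapping SDs. Dnajc24, which is needed for diphthamide synthesis on elongation factor EF2, was lowest at 12.0 ± 1.80. In IH, the mean of Hspb1 was 299 ± 71.7 normalized counts per kb (SD, n = 5), next to 286 ± 68.0 for Hspa1b and 218 ± 43.0 for Hspa1a, with overlapping SDs.

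**Figure D1:**
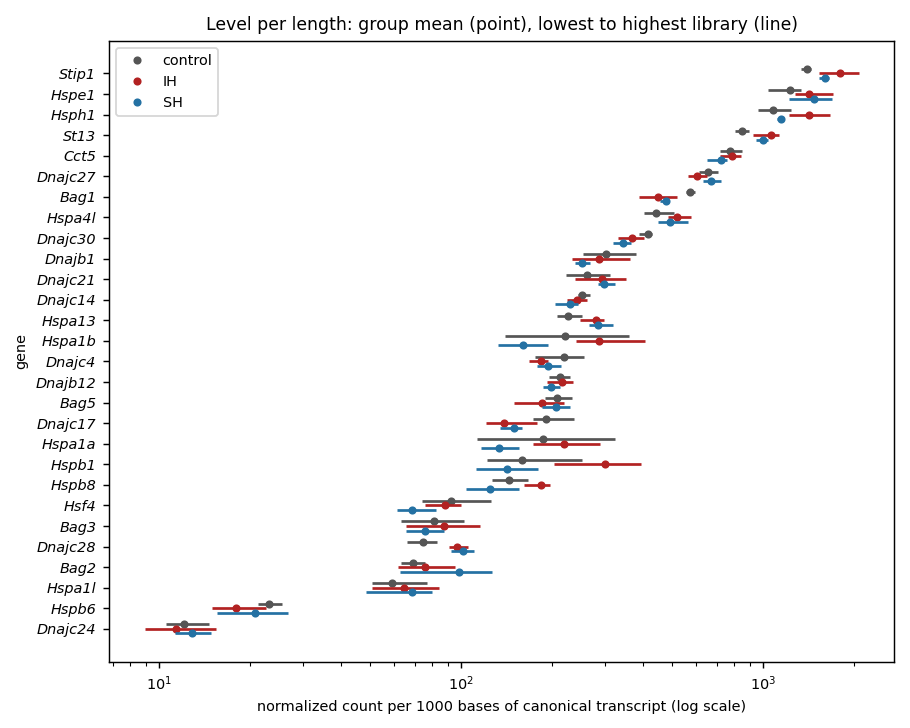
Level of the 28 genes per transcript length. The horizontal log axis gives the normalized count per kb of canonical transcript, points are group means and lines run from the lowest to the highest library of control (n = 4), IH (n = 5) and SH (n = 5); Stip1 is highest at 1395 in control and Dnajc24 lowest at 12.0.

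In IH against control, 7 of the 28 members (25.0%) passed the test (edgeR's quasi-likelihood test, Benjamini-Hochberg adjusted p under 0.05), where 10.9% of all genes tested passed. The genes that rose were Hsph1, Stip1, St13, Hspa13, Hspb1 and Dnajc28, and the gene that fell was Bag1. Among all genes tested, 6.08% rose and 4.85% fell. The members' log2 fold changes ran from -0.46 to 0.92 with a median of 0.12, against a median of -0.02 over all genes. At an unadjusted p under 0.05, 12 members passed, where 29.8% of all genes did. The ranges of the groups did not overlap for 4 members (Stip1, St13 and Dnajc28 above control, Bag1 below), where 15.1% of all genes had such ranges, 7.66% above and 7.48% below.

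In SH against control, 5 members (17.9%) passed, where 20.6% of all genes passed. Hspa13, St13 and Dnajc28 rose (10.2% of all genes rose), and Bag1 and Dnajc30 fell (10.5% of all genes fell). The members' share was thus near that of the table as a whole. Their log2 fold changes ran from -0.48 to 0.50 with a median of -0.10, against 0.00 over all genes. At an unadjusted p under 0.05, 12 members passed, where 36.0% of all genes did. The ranges did not overlap for 8 members (Hspa13, Stip1, St13 and Dnajc28 above control, Dnajc14, Dnajc17, Dnajc30 and Bag1 below), where 19.4% of all genes had such ranges, 8.76% above and 10.6% below. Both comparisons use the same 4 control libraries.

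Between IH and SH, which came from the same experiment, 2 members passed (7.14%), where 2.37% of all genes passed. Both were small heat shock genes that were higher in IH, Hspb1 and Hspb8, where 1.47% of all genes passed as higher in IH. No member passed as lower in IH by edgeR or DESeq2, where 0.899% of all genes did by edgeR. At an unadjusted p under 0.05, 9 members passed in either direction (15.8% of all genes). Every IH library was above every SH library for 5 members, Hspa1a, Hspa1b, Hsph1, Hspb1 and Hspb8, where 2.63% of all genes had such ranges (4.46% in either direction). No member had every IH library below every SH library, where 1.83% of all genes did. The log2 fold changes ran from -0.37 to 1.08 with a median of 0.08, against 0.00 over all genes.

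**Figure D2:**
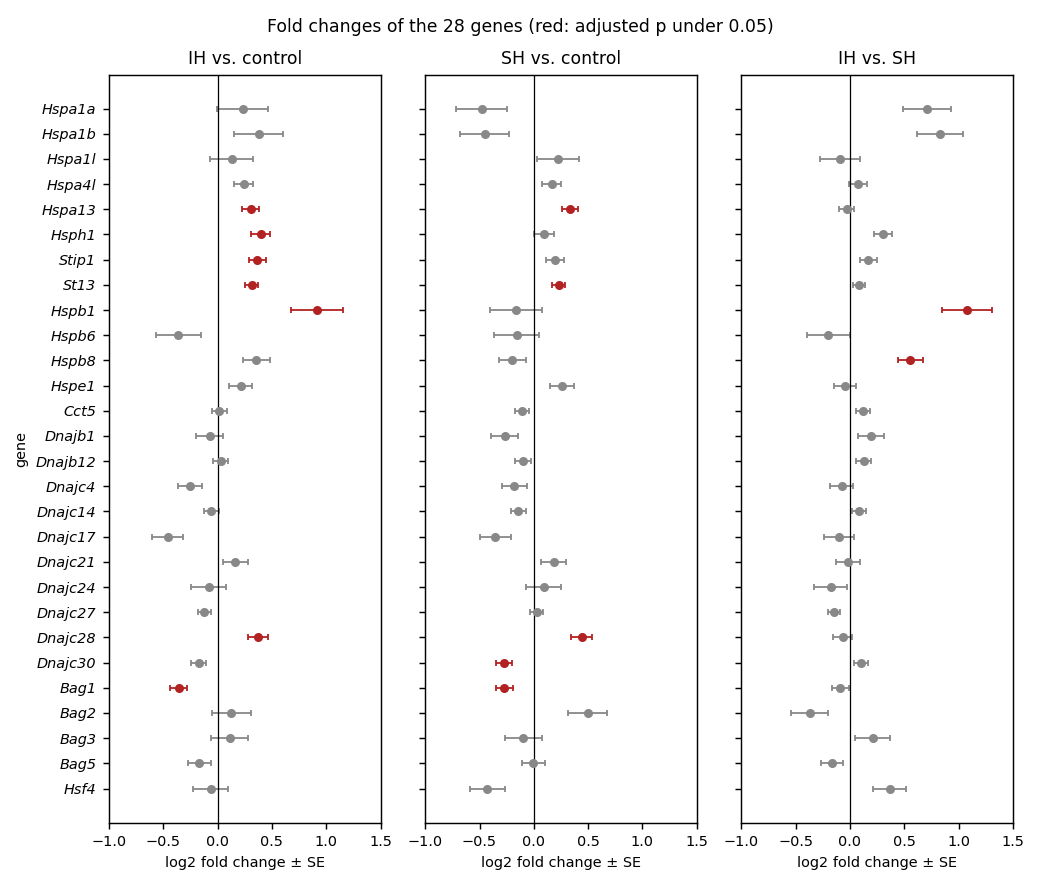
Log2 fold changes of the 28 genes in 3 comparisons. Points are edgeR estimates with standard errors as bars on a log2 axis, and red marks an adjusted p under 0.05; 7, 5 and 2 genes are red in IH vs. control, SH vs. control and IH vs. SH.

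Of the 6 HSP70 and HSP110 genes, 2 rose in IH (Hsph1 and Hspa13) and 1 in SH (Hspa13). Of the 2 cochaperone genes that link HSP70 to HSP90, 2 rose in IH (Stip1 and St13) and 1 in SH (St13). Among all genes, 6.08% rose in IH and 10.2% in SH. Hsph1, on chromosome 5 at 149537636 to 149560156, encodes the HSP110 protein that exchanges the nucleotide of HSP70. Its normalized counts were 5949, 6670.0, 6311 and 7605 in control, 9599, 7752, 10236, 7518 and 8498 in IH, and 7237, 7021, 6877, 7094 and 7132 in SH. All IH libraries lay above all SH libraries, whereas IH 4 lay below control 4. Hsph1 rose in IH (log2 fold change 0.39 ± 0.09 SE, adjusted p = 0.0130, edgeR). It did not pass in SH against control (0.09 ± 0.09, adjusted p = 0.488, edgeR) or in IH against SH (0.30 ± 0.08, adjusted p = 0.0800, edgeR, and 0.0207 by DESeq2, with 0.0207 to 0.459 over all alternatives).

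Stip1, on chromosome 19 at 6998060 to 7017394, encodes the adaptor that binds HSP70 and HSP90 at once. Its normalized counts were 2994, 2992, 2846 and 3083 in control, 4386, 3528, 4419, 3266 and 3591 in IH, and 3446, 3493, 3533, 3276 and 3316 in SH. All IH and all SH libraries lay above all control libraries. Stip1 rose in IH (log2 fold change 0.37 ± 0.08, adjusted p = 0.0108, edgeR), and in SH the difference was 0.20 ± 0.08 (adjusted p = 0.0925, edgeR, and 0.0251 with the SH and control libraries alone, with 0.0251 to 0.298 over all alternatives). St13, on chromosome 15 at 81246186 to 81284287, encodes HIP, which holds HSP70 in its ADP-bound state. Its normalized counts were 2869, 2715, 3038 and 2879 in control, 3791, 3462, 3821, 3122 and 3665 in IH, and 3248, 3440.1, 3196, 3473 and 3493 in SH. Here too no hypoxic library overlapped the control range. St13 rose in IH (0.31 ± 0.06, adjusted p = 0.00678, edgeR) and in SH (0.23 ± 0.06, adjusted p = 0.0187, edgeR). Without control 2, the SH value was 0.20 with an adjusted p of 0.0656 (edgeR, between 0.00809 and 0.765 over all alternatives). The difference between IH and SH did not pass for Stip1 (0.17 ± 0.08, adjusted p = 0.285, edgeR) or St13 (0.08 ± 0.06, adjusted p = 0.549, edgeR).

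Hspa13, on chromosome 16 at 75542319 to 75563992, encodes a microsomal HSP70-like ATPase. The normalized counts of Hspa13 were 879, 950.4, 1062 and 932 in control, 1254, 1176, 1208, 1212 and 1049 in IH, and 1197, 1177, 1344, 1179 and 1124 in SH. The SH range lay above that of control, and IH 5 lay just below control 3. Hspa13 rose in IH (0.30 ± 0.07, adjusted p = 0.0189, edgeR) and in SH (0.33 ± 0.08, adjusted p = 0.00735, edgeR). The IH value had an adjusted p of 0.0675, 0.0573 and 0.0513 without control 1, control 2 and control 4 (edgeR, between 0.00437 and 0.578 over all alternatives). Hspa4l, an HSP110 relative, did not pass in IH (0.24 ± 0.09, adjusted p = 0.0794, edgeR) or SH (0.16 ± 0.09, adjusted p = 0.180, edgeR), and the IH value had an adjusted p of 0.0481 by DESeq2. Without control 3, it was 0.31 with an adjusted p of 0.0320 (edgeR, between 0.0320 and 0.869 over all alternatives). Hspa1l, which is best known from the testis, had log2 fold changes between -0.09 and 0.22.

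The small heat shock gene Hspb1 had the largest fold change among the members in IH against control and in IH against SH. Hspb1, on chromosome 5 at 135916760 to 135918417, had normalized counts of 114, 128, 112 and 229.6 in control, 297, 239, 360.2, 185 and 289 in IH, and 155, 109, 164, 119.9 and 102 in SH. Control 4 stood above the other control libraries and above IH 4, and the IH and SH ranges did not overlap. Hspb1 rose in IH (log2 fold change 0.92 ± 0.24, adjusted p = 0.0253, edgeR) and was higher in IH than in SH (1.08 ± 0.23, adjusted p = 0.0231, edgeR). It did not pass in SH against control (-0.16 ± 0.24, adjusted p = 0.667, edgeR), where the value was 0.14 without control 4. Without control 4, the IH value was 1.22 with an adjusted p of 0.00578 (edgeR).

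Leaving out single libraries ended the calls on Hspb1 in several cases. In IH against control, the adjusted p was 0.0854, 0.0771, 0.0659 and 0.0511 without control 1, control 2, control 3 and IH 1 (edgeR, between 0.00215 and 0.0854 over all alternatives), at log2 fold changes between 0.81 and 0.88. In IH against SH, it was 0.0512, 0.0518, 0.0628, 0.0546 and 0.0551 without IH 1, IH 3, SH 2, SH 4 and SH 5 (edgeR, between 0.000215 and 0.284 over all alternatives), at log2 fold changes between 0.96 and 1.05. Of the stretches of 100 bases in its transcript, 55.4% also occur in the pseudogene Hsp25-ps1, so reads may have been divided between them.

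Hspb8, on chromosome 5 at 116546409 to 116561084, works with Bag3 in the removal of damaged proteins by autophagy. Its normalized counts were 285, 268, 312 and 352 in control, 416, 340.3, 390.0, 406 and 394 in IH, and 328, 289.9, 228, 219 and 255 in SH. All IH libraries were above all SH libraries, and IH 2 lay below control 4. Hspb8 was higher in IH than in SH (0.56 ± 0.12, adjusted p = 0.0224, edgeR), and its difference from control was 0.36 ± 0.12 in IH (adjusted p = 0.0717, edgeR) and -0.20 ± 0.12 in SH (adjusted p = 0.259, edgeR). The adjusted p of IH against SH was 0.0512, 0.0557, 0.0573 and 0.0540 without IH 1, IH 4, SH 3 and SH 4, and 0.0520 with the IH and SH libraries alone (edgeR, between 0.00119 and 0.215 over all alternatives). That of IH against control was 0.0447 by DESeq2, 0.0444 with the IH and control libraries alone and 0.0462 without SH 1 (edgeR for the last 2, between 0.0444 and 0.184 over all alternatives). Hspb6, the least abundant small heat shock gene, had a mean normalized count of 70.3 ± 5.31 in control, against 54.5 ± 11.3 in IH and 62.9 ± 16.2 in SH, and passed in no comparison by edgeR.

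**Figure D3:**
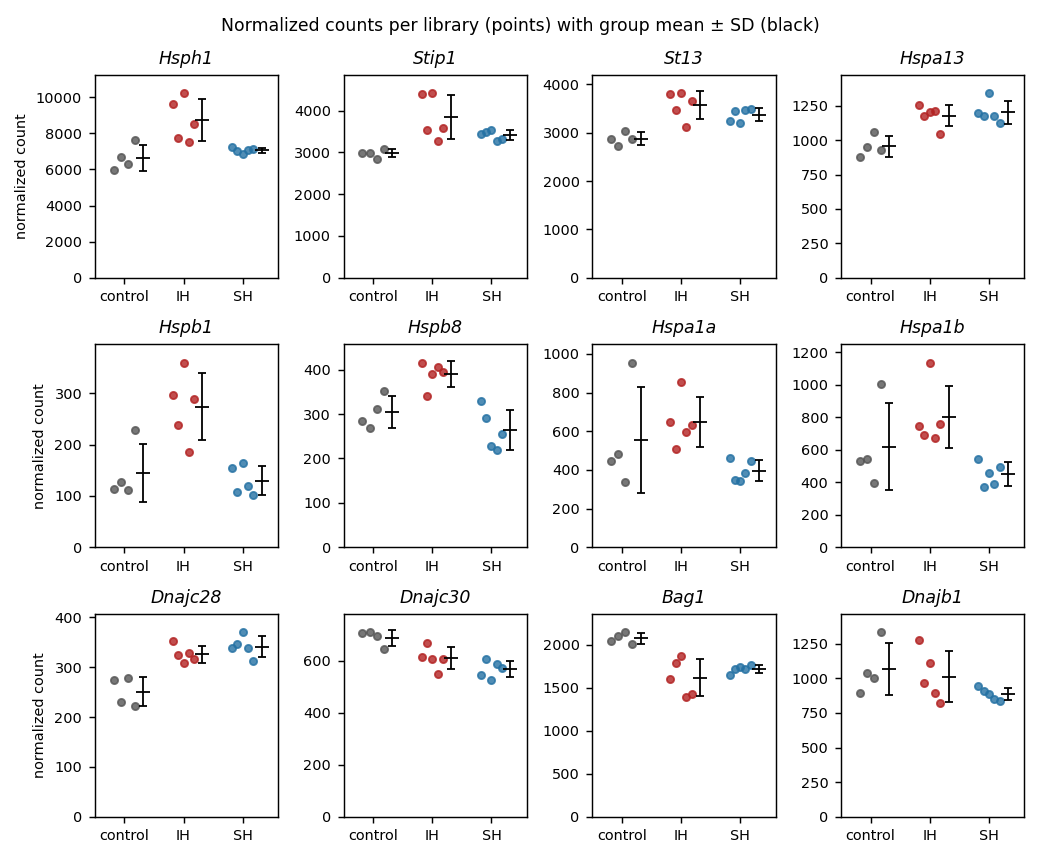
Normalized counts of 12 genes by group. Points are single libraries of control (n = 4), IH (n = 5) and SH (n = 5), black bars are group means ± SD, and each vertical axis starts at 0; for Hspb1 and Hspb8 the IH points lie above all SH points, and for Hspa1a and Hspa1b control 4 lies far above the other control points.

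The inducible HSP70 genes did not pass in any comparison in the edgeR fit of all 14 libraries with group as the term, passed in IH against SH by DESeq2, and had a wide spread in control. Hspa1a, on chromosome 17 at 35188166 to 35191132, had normalized counts of 447, 480.0, 335 and 955 in control, 650.0, 510.4, 855, 594 and 632 in IH, and 459.5, 345, 345, 385 and 446 in SH. Hspa1b, on chromosome 17 at 35175412 to 35178214, had 531, 543, 392 and 1004 in control, 748, 692, 1135, 671 and 757 in IH, and 541, 369.8, 456, 387 and 496 in SH. For both genes, the IH libraries lay above all SH libraries and above control 1 to 3, while control 4 lay above all 5 IH libraries for Hspa1a and above all but IH 3 for Hspa1b.

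In IH against SH, the log2 fold change was 0.71 ± 0.22 for Hspa1a (adjusted p = 0.121, edgeR) and 0.83 ± 0.21 for Hspa1b (adjusted p = 0.0564, edgeR). There, DESeq2 gave an adjusted p of 0.0229 for Hspa1a and 0.00272 for Hspa1b, and edgeR with the IH and SH libraries alone gave 0.0390 and 0.0324. In IH against control, it was 0.23 ± 0.23 for Hspa1a (adjusted p = 0.524, edgeR) and 0.38 ± 0.23 for Hspa1b (adjusted p = 0.268, edgeR). In SH against control, it was -0.48 ± 0.23 (adjusted p = 0.155, edgeR) and -0.45 ± 0.23 (adjusted p = 0.164, edgeR). Without control 4, both genes passed in IH against control, Hspa1a at 0.63 with an adjusted p of 0.0337 (edgeR, between 0.0337 and 0.903 over all alternatives) and Hspa1b at 0.71 with an adjusted p of 0.0283 (edgeR, between 0.0283 and 0.543 over all alternatives). In IH against SH, the same omission left the fold changes at 0.71 and 0.83 with standard errors of 0.14 and 0.15, and gave an adjusted p of 0.0218 for Hspa1a and 0.0163 for Hspa1b (edgeR), where the alternatives ran from 0.0218 to 0.364 and from 0.00272 to 0.306. For Hspa1b in IH against SH, omission of control 3 also gave an adjusted p under the threshold, 0.0415 (edgeR).

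Reads of Hspa1a and Hspa1b can be exchanged between the genes, since 48.6% and 49.9% of the stretches of 100 bases in their transcripts occur in other genes, mostly in each other. Their transcripts were 91.1% identical. The ratio of Hspa1a to Hspa1b counts was between 0.738 and 0.994 in all libraries. Summed into 1 feature, they gave 0.77 ± 0.21 in IH against SH (adjusted p = 0.0756, edgeR), 0.31 ± 0.23 in IH against control (adjusted p = 0.365, edgeR) and -0.47 ± 0.23 in SH against control (adjusted p = 0.150, edgeR).

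Dnajb1, the HSP40 that stimulates inducible HSP70, had normalized counts of 892, 1036, 1002 and 1334 in control, 1276, 963, 1110.4, 892 and 821 in IH, and 943, 907, 887, 851 and 837 in SH. The 3 groups overlapped, with control 4 again the highest control library. Its log2 fold change was -0.07 ± 0.13 in IH (adjusted p = 0.718, edgeR), -0.27 ± 0.13 in SH (adjusted p = 0.137, edgeR) and 0.19 ± 0.12 between IH and SH (adjusted p = 0.488, edgeR). Without control 4, the IH value was 0.05. Bag3, which is induced with the HSP70 genes and links them to autophagy, was at 213 ± 41.3 in control, 229.7 ± 49.2 in IH and 199 ± 25.6 in SH (adjusted p = 0.685, 0.720 and 0.603 in IH against control, SH against control and IH against SH, edgeR). Hspe1, the mitochondrial HSP10, was at 949.9 ± 103, 1100.3 ± 141 and 1136 ± 135, which did not pass in IH (0.21 ± 0.11, adjusted p = 0.204, edgeR) or SH (0.26 ± 0.11, adjusted p = 0.104, edgeR). Hspe1 overlaps Hspd1 on the opposite strand.

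**Figure D4:**
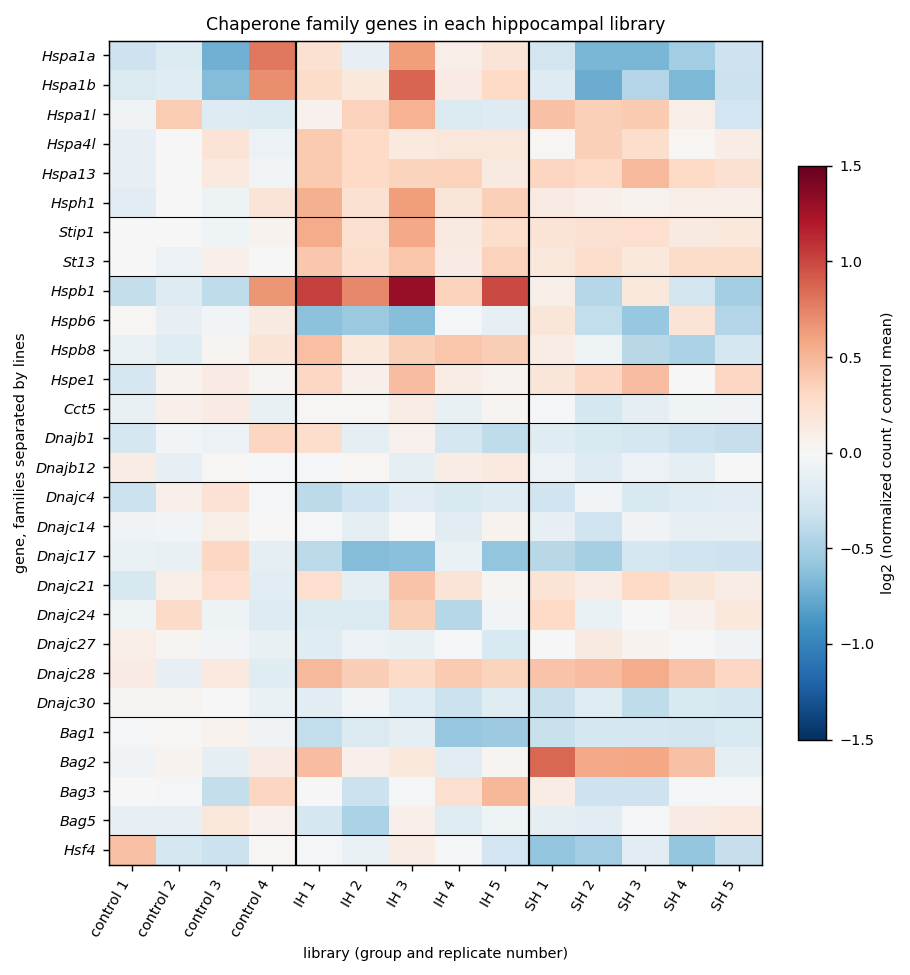
The 28 genes in each of the 14 libraries. Color gives the log2 ratio of the normalized count to the control mean, and lines separate families and groups; Hspb1 is deepest red in IH 3, at 360.2 normalized counts, and Hspa1a and Hspa1b are red in control 4.

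Single libraries were high for many genes at once. Control 4 was the highest control library for 9 of 12 measured genes of a list of inducible cytosolic heat shock genes and for 10 of the 28 members, and the lowest for 8. Control 3 was the highest control library for 12 of the 28 members and for 3 of the 12 inducible genes. IH 3 was the highest IH library for 6 of the 12 and for 15 of the 28. SH 1 was the highest SH library for 6 of the 12. Control 4 was also the library with the highest choroid plexus markers, and SH 1 exceeded 20000 as well, whereas IH 3 did not. The part of these markers in the levels of the members was not tested beyond the fits that use them.

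Of the 10 Dnajb and Dnajc members, Dnajc28 passed in IH and SH and Dnajc30 in SH by edgeR, where 10.9% of all genes passed in IH and 20.6% in SH. Dnajc28, on chromosome 16 at 91411141 to 91415926, had normalized counts of 274, 229.9, 279 and 222 in control, 353, 324, 308, 329 and 316 in IH, and 339, 346, 371, 339 and 312 in SH. All hypoxic libraries lay above all control libraries. It rose in IH (0.37 ± 0.09, adjusted p = 0.0197, edgeR) and in SH (0.44 ± 0.09, adjusted p = 0.00561, edgeR). In IH, the adjusted p was 0.0705 without control 2 and 0.0655 without control 4 (edgeR, between 0.00887 and 0.252 over all alternatives).

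Dnajc30, on chromosome 5 at 135093055 to 135098820, encodes a J-domain protein of the mitochondria. Its normalized counts were 705, 709.9, 693 and 643 in control, 614, 667, 606, 549 and 608 in IH, and 547, 608, 527, 586 and 571 in SH. All SH libraries lay below all control libraries, and IH 2 lay within the control range. It fell in SH (-0.28 ± 0.07, adjusted p = 0.0149, edgeR) and did not pass in IH (-0.18 ± 0.07, adjusted p = 0.115, edgeR), with no difference past the threshold between IH and SH (0.10 ± 0.07, adjusted p = 0.537, edgeR). It overlaps Bud23 on the opposite strand, and the strand setting of the counting is not given in the sources used here.

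The other 8 J-domain members passed in no comparison in the edgeR fit of all 14 libraries with group as the term. Apart from Dnajb1, they were Dnajb12, Dnajc4, Dnajc14, Dnajc17, Dnajc21, Dnajc24 and Dnajc27. Of these, Dnajc17 came nearest to the threshold. Its mean normalized count was 211 ± 33.7 in control, against 154 ± 26.5 in IH and 166 ± 11.0 in SH, and its log2 fold change was -0.46 ± 0.14 in IH (adjusted p = 0.0507, edgeR) and -0.36 ± 0.14 in SH (adjusted p = 0.0876, edgeR). The IH value of Dnajc17 had an adjusted p of 0.0295 by DESeq2, and by edgeR 0.0467 with filterByExpr and 0.0464 with scaling by the 80th percentile. It was -0.56 with an adjusted p of 0.0215 without IH 4 (edgeR, between 0.0215 and 0.233 over all alternatives). The SH libraries of Dnajc17 lay below all control libraries, as did those of Dnajc14.

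Bag1, a nucleotide exchange factor that directs HSP70 clients toward the proteasome, was the member that fell in both comparisons with control. It lies on chromosome 4 at 40934152 to 40948318 and overlaps Chmp5 on the opposite strand. Its normalized counts were 2042, 2104, 2146 and 2003 in control, 1599.8, 1789, 1872, 1397 and 1421 in IH, and 1641, 1721, 1739, 1717 and 1767 in SH. All hypoxic libraries lay below all control libraries, and the IH libraries were more spread out than those of SH (SD 213 and 46.6, n = 5 each). Bag1 fell in IH (-0.36 ± 0.08, adjusted p = 0.0107, edgeR) and in SH (-0.27 ± 0.08, adjusted p = 0.0252, edgeR). The SH value had an adjusted p of 0.0517, 0.0638 and 0.0574 without control 1, control 2 and control 3 (edgeR, between 0.00736 and 0.190 over all alternatives).

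In the same fit, the other BAG genes passed in no comparison. Bag2, an inhibitor of the ubiquitin ligase CHIP, had the largest positive difference in SH among the members (0.50 ± 0.18, adjusted p = 0.0601, edgeR), with a mean normalized count of 142 ± 11.4 in control, against 154 ± 25.1 in IH and 199.8 ± 47.1 in SH, and with SH 5 below every control library. Its adjusted p was 0.0357 by DESeq2, and by edgeR 0.0384 with the replicate number as a block and 0.0154 without SH 5 (edgeR, between 0.0154 and 0.130 over all alternatives). Bag5 had log2 fold changes of -0.17 in IH and 0.00 in SH. Cct5 was at 3092 ± 270.2, 3124 ± 171 and 2868 ± 183 normalized counts (log2 fold change 0.01 ± 0.07 in IH, adjusted p = 0.897, and -0.11 ± 0.07 in SH, adjusted p = 0.263, edgeR). Hsf4, a heat shock factor known for its role in the lens, was at 195 ± 49.3 in control, 187 ± 18.1 in IH and 145 ± 19.1 in SH. Its difference did not pass in SH (-0.43 ± 0.16, adjusted p = 0.0689, edgeR), and without control 3 it was -0.52 with an adjusted p of 0.0427 (edgeR, between 0.0427 and 0.594 over all alternatives).

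The list of inducible cytosolic heat shock genes holds 20 genes, of which 12 were measured, including members named above. In IH against control, 5 of the 12 rose (Hsph1, Hspb1, Stip1, Chordc1 and Cryab) and none fell by edgeR, where 6.08% of all genes rose and 4.85% fell, and the median log2 fold change was 0.36. For SH, the count was 1 (Chordc1; 10.2% of all genes rose) and the median 0.00, and between IH and SH 2 were higher in IH (1.47% of all genes) with a median of 0.26. Outside the members, Cryab, the small heat shock protein alpha B-crystallin of glia and lens, was at 1206 ± 160.5 normalized counts in control and 1972 ± 473 in IH (0.71 ± 0.15, adjusted p = 0.0102, edgeR). Without the choroid plexus-rich libraries, the value of Cryab was 0.87 with an adjusted p of 0.0773 (edgeR, between 0.000121 and 0.0773 over all alternatives). In IH against SH, Cryab was at 0.49 (adjusted p = 0.0921, edgeR, and 0.0177 by DESeq2). Chordc1, an HSP90 cochaperone, was at 1737 ± 91.9 in control, 2508 ± 308 in IH and 2142 ± 169.9 in SH (0.53 ± 0.09, adjusted p = 0.00203 in IH, and 0.30 ± 0.09, adjusted p = 0.0230 in SH, edgeR). The SH value of Chordc1 had an adjusted p of 0.0747, 0.0517 and 0.0540 without control 1, control 4 and SH 5 (edgeR), and with GC content and length trends removed neither value passed (0.24, adjusted p = 0.0675 in IH, and 0.00, adjusted p = 0.992 in SH, edgeR). Without the choroid plexus-rich libraries, neither passed either (adjusted p = 0.05004, just above the threshold, in IH and 0.205 in SH, edgeR). The ER chaperones that the symbol rule set aside, 5 of 6 measured, all rose in IH (median 0.53) and in SH (median 0.34). Among all genes, 6.08% rose in IH and 10.2% in SH. Between IH and SH, 3 of the 5 passed as higher in IH, where 1.47% of all genes did. With GC content and length trends removed, Hspa5, Hsp90b1, Dnajb9 and Dnajc3 did not pass in SH (adjusted p = 0.266, 0.318, 0.193 and 0.270, edgeR). The IH call on Dnajb9 was lost under 12 of 26 alternatives.

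The libraries differed in how their counts depended on base composition. The slope of log2 count on GC content, per 10 percentage points, was between 0.02 and 0.22 in the control libraries, between -0.05 and 0.01 in IH and between -0.17 and 0.05 in SH. With each library's GC and length trends removed, 4 members passed in IH and 2 in SH (Hspe1 and Dnajc14), where 5.71% and 6.57% of all genes passed, against 10.9% and 20.6% before. Hspb1 (1.11 ± 0.23, adjusted p = 0.0120, edgeR), Stip1 (0.38 ± 0.07, adjusted p = 0.00690, edgeR) and Bag1 (-0.34 ± 0.09, adjusted p = 0.0301, edgeR) passed in IH as before, and Hspe1 was added (0.32, adjusted p = 0.0363, edgeR, between 0.0363 and 0.470 over all alternatives). The log2 fold change of Hspa13 went from 0.30 to 0.08 in IH and from 0.33 to 0.09 in SH, and that of St13 from 0.31 to 0.16 and from 0.23 to 0.05, and neither gene passed (adjusted p = 0.578 and 0.125 in IH, 0.512 and 0.696 in SH, edgeR). In IH, Hsph1 (0.30, adjusted p = 0.0988, between 0.000769 and 0.146 over all alternatives) and Dnajc28 (0.26, adjusted p = 0.107, between 0.00887 and 0.252) no longer passed (edgeR). In SH, the same held for Bag1 (-0.24, adjusted p = 0.102, edgeR). Dnajc28 (0.30, adjusted p = 0.0660, between 0.00103 and 0.133) and Dnajc30 (-0.19, adjusted p = 0.145, between 0.00851 and 0.150) did not pass in SH either (edgeR). Between IH and SH, Hspb1 (1.03 ± 0.22, adjusted p = 0.0208, edgeR) and Hspb8 (0.56 ± 0.12, adjusted p = 0.0188, edgeR) passed as before.

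Choroid plexus content was addressed by 2 further fits. With the markers as a covariate, 7, 5 and 4 members passed in IH against control, SH against control and IH against SH, where 10.1%, 19.5% and 2.41% of all genes passed, with Hspa1a (adjusted p = 0.0496, edgeR) and Hspa1b (adjusted p = 0.0369, edgeR) added to Hspb1 and Hspb8 in the last. Without the 6 libraries rich in these markers, which left 3 control, 3 IH and 2 SH libraries, Hspb1 was the 1 member that passed in IH (1.33 ± 0.20, adjusted p = 0.0248, edgeR), where 0.654% of all genes passed, and 0 members passed in SH against control or in IH against SH by edgeR, with 7 and 6 at an unadjusted p under 0.05 (22.6% and 8.67% of all genes). The differences of Hsph1 (0.48), Stip1 (0.38) and St13 (0.34) in IH were as large as with all libraries or larger, and those of Dnajc28 (0.27), Hspa13 (0.25) and Bag1 (-0.31) were smaller in size.

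**Figure D5:**
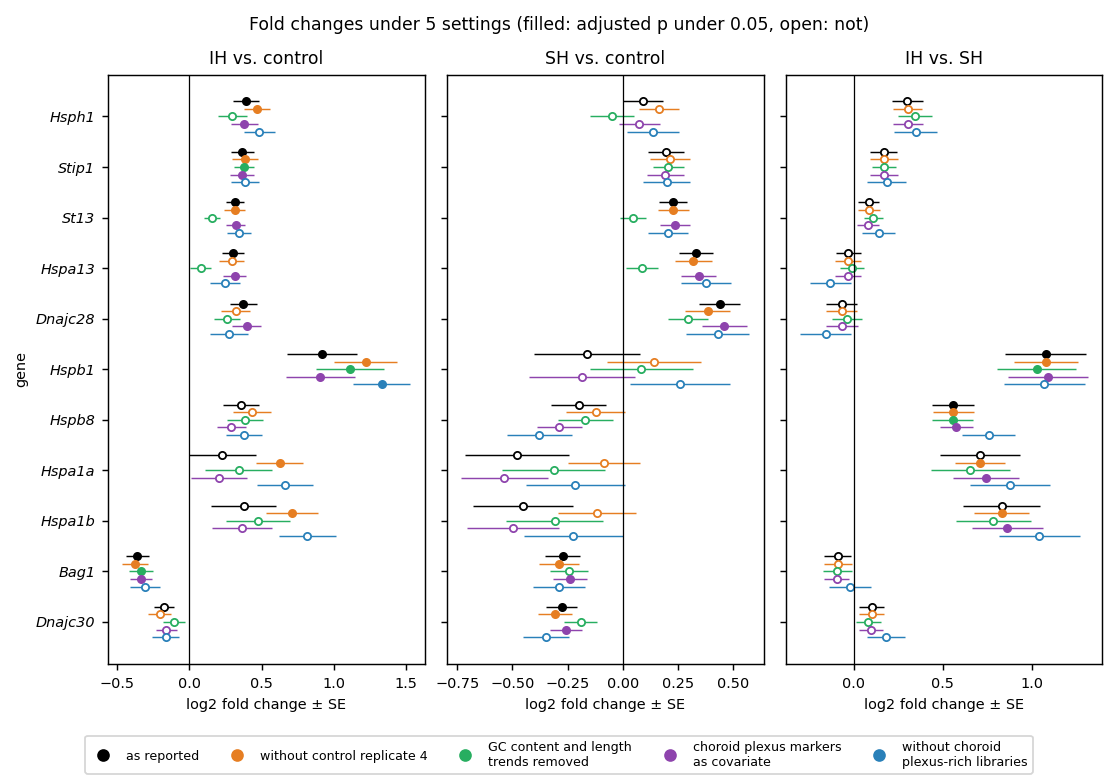
Log2 fold changes of 11 genes under 5 settings. Points are edgeR estimates with standard errors, filled where the adjusted p is under 0.05, on a log2 axis in 3 comparisons; Hspb1 in IH vs. control lies between 0.90 and 1.33 in all 5, and Hspa13 drops to 0.08 once GC content and length trends are removed.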

How the data were processed

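Hippocampal poly(A) RNA of 4 control, 5 IH and 5 SH mice was sequenced with a directional kit and paired ends. According to the methods and the submitters' processing notes, the authors trimmed reads with fastp 0.23.4, aligned them to GRCm39 with HISAT2 2.2.1 and quantified them with StringTie 2.2.1, after bcl2fastq 2.19 and FastQC. The deposited values are estimated counts per gene, not normalized, for 7756 genes; 10 genes had values that were not whole and were rounded. The authors kept protein-coding genes above a count of 40 in each group whose processed signal differed from control, so the shares of genes called and the adjusted p-values apply to this selection alone. All 14 sample columns were used.

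The 7338 genes whose mean count reached 40 in all 3 groups were fitted with edgeR 4.0.16 (R 4.3.3, limma 3.58.1), TMM scaling and the quasi-likelihood test, all 3 groups in 1 fit with group as the term, and Benjamini-Hochberg adjustment over all genes tested. The SE was obtained as log2 fold change over root F. Replicates are separate samples in the labels, and the p-values measure the spread between these samples, which may be technical in part. Genes with an adjusted p under 0.05 in any comparison, the classical inducible genes, and the member of each family with the smallest p were named with values; Bag2, Dnajc17, Hspa4l, Hspb6, Bag5 and Hspa1l were added after their values were seen. The members, lists and tests were chosen with earlier results of these data known.

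Gene locations, lengths and GC content came from GENCODE M39 on GRCm39, the build of the authors; 7707 symbols matched directly, 17 by synonym and 32 not at all, and all 28 members had a value. Promoter sequences were read from that genome. Replicate numbers were not used as pairs, since the correlation of deviations was between -0.30 and 0.46 over 13 pairs and above 0.1 in 6. No 2 libraries of a group were duplicates (chi-square per degree of freedom at least 8.96 over 26 pairs). Library totals did not differ past the threshold (exact permutation test, two-sided, p = 0.206 for IH against control, 0.254 for SH against control and 0.944 for IH against SH). Simulated data for IH against control over 7338 genes were used to test the script, which recovered 52.9% of 104 genes changed by 0.58 and 80.2% of 96 changed by 1.0 on the log2 scale, with 6 false calls. Alternatives were DESeq2 1.42.0, 3 other scalings, filterByExpr or no filter, fits restricted to the 2 groups, the replicate block, removal of GC content and length trends, both together, a choroid plexus covariate and leaving out each library. Leaving out the choroid plexus-rich libraries and summing Hspa1a with Hspa1b were added after the data were examined.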

Additional observations from a re-analysis of the deposited data

Results flagged for a closer look

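In 84 sets of values (28 genes in 3 groups), 3 held a library that stood apart from the rest of its group by Dixon's test, and chance gives about 1 in 20. For Hspa1b, IH 3 was highest at 1135.4 normalized counts, against 756.9 in the next library. For Hspb1, control 4 was highest at 229.6, against 127.5 in the next. For Dnajc17, control 3 was highest at 261.8, against 197.5 in the next.

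Effects that differed between the hypoxia regimens were found for 2 of the 3 small heat shock genes, and the third, Hspb6, did not differ past the threshold (-0.20, adjusted p = 0.714, edgeR). The log2 fold change of IH against SH, which is the difference of their changes from the same control, was 1.08 for Hspb1 (adjusted p = 0.0231, edgeR, 5 of 5 IH libraries above every SH library) and 0.56 for Hspb8 (adjusted p = 0.0224, edgeR, also 5 of 5), where 2.37% of all genes passed and 1.47% passed as higher in IH. Each of these calls was lost under 6 of 26 alternatives, which for Hspb1 included leaving out IH 1, IH 3, SH 2, SH 4 or SH 5 and for Hspb8 leaving out IH 1, IH 4, SH 3 or SH 4 (adjusted p from 0.000215 to 0.284 for Hspb1 and from 0.00119 to 0.215 for Hspb8 over all alternatives).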

How the results depend on the processing

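Of 1254 alternative values over 48 results for named genes, 1159 kept the direction and the side of the threshold, 54 lost the call, 20 gained one and 21 changed sign. The number of members called was 7 in IH against control, 5 in SH against control and 2 in IH against SH. The shares of all genes called were 10.9%, 20.6% and 2.37%. The number became 4, 2 and 2 with GC content and length trends removed (5.71%, 6.57% and 3.0% of all genes), 3, 2 and 2 with the replicate block and trend removal together (4.71%, 5.34% and 2.48%), and 1, 0 and 0 without the choroid plexus-rich libraries (edgeR, with 11, 7 and 6 members and 21.1%, 22.6% and 8.67% of all genes at an unadjusted p under 0.05, and 0 of all genes called in the last comparison), where fewer samples remained. DESeq2 called 10, 6 and 5 members, and 14.7%, 23.3% and 4.09% of all genes, and the choroid plexus covariate called 4 members in IH against SH. Leaving out single libraries gave 4 to 8, 3 to 6 and 0 to 4: 4 and 3 without control 2 in the comparisons with control, where 5.26% and 13.3% of all genes were called, and, in IH against SH, 4 without control 4, 1 without IH 3, IH 4, SH 2, SH 3 or SH 5, and 0 without IH 1 or SH 4, with 1.2% to 2.43% of all genes called in that comparison.

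The replicate block gave 7, 6 and 2 members called (10.1%, 19.7% and 2.02% of all genes) and added Bag2 in SH (adjusted p = 0.0384, edgeR) and changed no other call. Signs that changed belonged to values that passed no test, and the cause was not tested. With GC content and length trends removed, alone and with the block, Cct5 in IH became -0.0735 and -0.0828, Hsf4 in IH 0.0931 and 0.107, Hspb1 in SH 0.0844 and 0.110, and Hsph1 in SH -0.0502 and -0.0452, and Bag3 in SH became 0.00761 with the trends alone removed. Hspb1 in SH was 0.262 without the choroid plexus-rich libraries. With 1 library left out, the values ran from -0.172 to 0.0516 for Dnajb1 in IH, -0.00805 to 0.237 for Bag3 in IH, -0.0204 to 0.0611 for Cct5 in IH, -0.156 to 0.119 for Hsf4 in IH, -0.270 to 0.143 for Hspb1 in SH, -0.200 to 0.0289 for Bag3 in SH, -0.0531 to 0.0127 for Hspa13 in IH against SH and -0.117 to 0.00895 for Hspe1 in IH against SH. The difference of mean library totals of IH against SH ran from -540332 to 390763. Counts as low as 38 for Hspb6 limit the precision of its values.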

Other observations

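The cold-inducible RNA-binding proteins, which respond to temperature in the direction opposite to heat shock genes, were measured beside the members. The mean normalized count of Cirbp was 1316 ± 171 (SD) in control, against 881 ± 73.2 in IH and 1071 ± 50.5 in SH. It fell in IH (log2 fold change -0.58 ± 0.09, adjusted p = 0.00120, edgeR) and in SH (-0.30 ± 0.09, adjusted p = 0.0247, edgeR), and its difference between IH and SH did not pass (-0.28 ± 0.08, adjusted p = 0.0916, edgeR, and 0.0440 by DESeq2). Rbm3 fell in SH (-0.36 ± 0.07, adjusted p = 0.00450, edgeR) and did not pass in IH (-0.17 ± 0.07, adjusted p = 0.142, edgeR). With GC content and length trends removed, Cirbp did not pass in SH (-0.21, adjusted p = 0.185, edgeR) and Rbm3 fell in IH (-0.36, adjusted p = 0.0179, edgeR). Without the choroid plexus-rich libraries, the adjusted p was 0.05004 for Cirbp in IH, just above the threshold, 0.159 for Cirbp in SH and 0.0979 for Rbm3 in SH (edgeR). Over all alternatives, it ran from 3.36e-07 to 0.05004 for Cirbp in IH, from 0.0136 to 0.209 for Cirbp in SH, from 0.0440 to 0.628 for Cirbp in IH against SH, from 0.0179 to 0.370 for Rbm3 in IH and from 0.000327 to 0.0979 for Rbm3 in SH.

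Prefoldin and partners of the cytosolic chaperonin, 5 of 10 measured, moved in both directions. Vbp1, a prefoldin subunit, rose in IH (0.39 ± 0.08, adjusted p = 0.00903, edgeR) and in SH (0.36 ± 0.08, adjusted p = 0.00764, edgeR). Pfdn1 fell in IH (-0.44 ± 0.09, adjusted p = 0.00757, edgeR) and in SH (-0.46 ± 0.09, adjusted p = 0.00364, edgeR), and Pfdn6 fell in IH (-0.31 ± 0.07, adjusted p = 0.0155, edgeR). With GC content and length trends removed, Vbp1 did not pass in IH (0.13, adjusted p = 0.452, edgeR) or SH (0.11, adjusted p = 0.518, edgeR). Pfdn6 did not pass in IH in that fit either (-0.18, adjusted p = 0.216, edgeR). Of the mitochondrial chaperones and proteases outside the members, 7 of 11 were measured. The protease subunit gene Afg3l2 fell in IH (-0.21 ± 0.05, adjusted p = 0.0138, edgeR) and in SH (-0.20 ± 0.05, adjusted p = 0.00976, edgeR), and Yme1l1 rose in SH (0.27 ± 0.08, adjusted p = 0.0298, edgeR), a call that was lost under 7 of 26 alternatives. With GC content and length trends removed, the SH value of Yme1l1 was 0.00 (adjusted p = 0.979, edgeR). Of 19 cofactors of HSP70 and HSP90 outside the members, 3 were measured, and apart from Chordc1 the exchange factor gene Hspbp1 had a value in SH near the threshold (-0.27 ± 0.09, adjusted p = 0.0448, edgeR) that was lost under 16 of 26 alternatives.

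Markers of blood and brain cell types moved beside the members as follows. The 4 erythrocyte genes tested all fell in IH, where 4.85% of all genes fell. The summed normalized count of the list was between 1649 and 2304 in IH, against 2926 to 3189 in control and 2203 to 3081 in SH. Of 26 alternatives, the IH call was lost under 8 for Hbb-bt, 5 for Hba-a1, 1 for Hbb-bs and 0 for Hba-a2. Of 7 endothelial markers, 1 rose in IH (Ly6c1) and 3 in SH (Abcb1a, Flt1 and Slco1a4), where 6.08% and 10.2% of all genes rose. The IH call on Ly6c1 was lost under 6 of 26 alternatives. With GC content and length trends removed, Abcb1a, Flt1 and Slco1a4 did not pass in SH (adjusted p = 0.242, 0.159 and 0.171, edgeR). Slco1a4 was lower in IH than in SH (-0.40 ± 0.06, adjusted p = 0.00444, edgeR), where the list had a median log2 fold change of -0.03 and Ly6c1 was at 0.28 (adjusted p = 0.239, edgeR). Of 8 markers of hippocampal neurons, Prox1, which marks granule cells of the dentate gyrus, rose in IH (0.66 ± 0.16, adjusted p = 0.0169, edgeR) and in SH (0.81 ± 0.16, adjusted p = 0.00387, edgeR), and its difference between IH and SH did not pass (-0.15 ± 0.15, adjusted p = 0.715, edgeR). With GC content and length trends removed, the IH value of Prox1 was 0.50 and did not pass (adjusted p = 0.0758, edgeR). The median of the 8 was 0.04 in IH and -0.04 in SH, and Rbfox3 (-0.16 and -0.09), Neurod6 (-0.10 and -0.22), Camk2a (-0.05 and -0.10) and Spink8 (-0.09 and -0.22) had negative values in IH and SH that did not pass. The part of these cell types in the levels of the members was not tested. Single markers were named after their values were seen. Of 4 microglial markers, 2 fell in SH (Csf1r and C1qa), where 10.5% of all genes fell. The call on Csf1r was lost under 18 and that on C1qa under 7 of 26 alternatives. None of 7 oligodendrocyte or 14 choroid plexus markers passed in any comparison in the edgeR fit of all 14 libraries with group as the term. Nor did the 1 astrocyte marker measured. In SH against control, the oligodendrocyte marker Mobp passed under 3 and the choroid plexus marker Slc13a4 under 1 of 26 alternatives. Of 9 markers of thalamus and striatum, 1 rose in SH, where 10.2% of all genes rose. Without the choroid plexus-rich libraries, where 47 of 7182 genes passed in IH, 26 in SH and 0 between IH and SH by edgeR, none of the calls on the genes given with an adjusted p in these paragraphs held by edgeR. Leaving out 1 library also ended the call (edgeR) of Cirbp in SH (adjusted p = 0.0992 without control 1), of Pfdn6 in IH (0.0560 and 0.0629 without control 1 and control 2), of Prox1 in IH (0.0536 and 0.0574 without control 1 and control 2) and of Yme1l1 in SH (0.101, 0.0756, 0.0694 and 0.0514 without control 1, control 2, SH 2 and SH 5).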
